A study of Mus musculus with 24 samples.

Results

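The genes described here are the integrin subunits, laminin chains and nidogens of the mouse, followed through the healing of an amputated digit tip. A row of the table was a member when its whole name was Itga, Itgb, Lama, Lamb or Lamc and then a number or a single letter, or when it was Nid1 or Nid2. This gave 36 of 15055 genes, and no filter on low values was applied to them. The 35 described here, which the counts of members below cover, are 16 integrin alpha, 8 integrin beta, 9 laminin and 2 nidogen genes. A further 5 names go on past the rule and were not members: Itga2b, Itgb1bp1, Itgb1bp2, Itgb3bp and Itgbl1.

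Integrins are receptors of the cell surface, made of 1 alpha and 1 beta chain, that hold cells to the surrounding matrix and connect that matrix to the actin or keratin filaments inside. Laminins, trimers of an alpha, a beta and a gamma chain, form the network on which basement membranes are built, the thin sheets under epidermis and around vessels, nerves, muscle and fat cells. Nidogens bridge the laminin network to the collagen IV network. In skin, the epidermal laminin (which holds the chains of Lama3 and Lamb3) and the integrin of Itga6 and Itgb4 anchor the basal keratinocytes at hemidesmosomes.

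RNA had been sequenced from hind limb digit tips of C57BL/6 mice, an inbred strain, that were 10 to 12 weeks old, the whole tip with its bone, cartilage, marrow, dermis and epidermis. Distal amputation, after which the digit tip is known to regrow, was sampled at 12, 14 and 21 days, and proximal amputation, after which it is known not to regrow, on the same days. Each of the 6 groups holds 4 libraries, 24 in all; every animal had been amputated, so neither level is an uninjured control, and a proximal amputation leaves other tissue at the cut than a distal one. Nothing in the labels ties the 4 libraries of a group to separate mice; the p-values therefore cover only the spread among these libraries, which may be technical.

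Values are the deposited whole numbers per gene, which behave as normalised values and not as read counts. Table totals ran from 15264829 to 19351055 and upper quartiles from 902.5 to 930.5, and the sequencing depth is unknown. Errors beside means are SDs over the 4 libraries of a group. Differences are log2(value + 1) with the standard error of a limma fit to the whole table, and "called" means an adjusted p under 0.05 over all 15055 genes. Marker genes of the labelled tissues were above 0 in every library, apart from 1 cartilage gene that was at 0 in a library. The sources used here do not say whether counting used strand. Exons of 13 members overlap exons of another annotated gene. For 2 of them, Itgav and Itgb4, that gene is itself in the table, on the opposite strand. It is therefore not known whether reads from the shared stretches were kept apart.

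The promoters of 4 members are shown, a pair that was higher and a pair that was lower after distal amputation at 12 days, so that the windows of both directions can be read side by side. They run from 250 bases before to 50 bases after a transcript start, 5′ to 3′, as RefSeq gives them on build GRCm38.p6. Itga3 lies at chr11:95076665-95076964, minus strand, Lamb3 at chr1:193301744-193302043, plus strand, Lama2 at chr10:27616893-27617192, minus strand and Nid1 at chr13:13437352-13437651, plus strand. Capitals mark matches to the GC box GGGCGG, searched on both strands.
Itga3: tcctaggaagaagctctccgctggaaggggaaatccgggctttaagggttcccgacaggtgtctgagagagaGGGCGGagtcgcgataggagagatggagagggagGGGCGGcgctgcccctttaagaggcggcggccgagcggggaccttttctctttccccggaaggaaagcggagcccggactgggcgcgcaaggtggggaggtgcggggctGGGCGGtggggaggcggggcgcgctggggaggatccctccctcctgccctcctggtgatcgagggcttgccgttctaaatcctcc
Lamb3: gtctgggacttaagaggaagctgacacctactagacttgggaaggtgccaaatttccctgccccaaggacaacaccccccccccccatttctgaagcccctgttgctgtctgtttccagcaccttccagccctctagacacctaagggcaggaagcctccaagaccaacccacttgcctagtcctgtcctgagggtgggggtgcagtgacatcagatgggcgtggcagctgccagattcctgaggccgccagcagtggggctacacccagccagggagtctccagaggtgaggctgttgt
Lama2: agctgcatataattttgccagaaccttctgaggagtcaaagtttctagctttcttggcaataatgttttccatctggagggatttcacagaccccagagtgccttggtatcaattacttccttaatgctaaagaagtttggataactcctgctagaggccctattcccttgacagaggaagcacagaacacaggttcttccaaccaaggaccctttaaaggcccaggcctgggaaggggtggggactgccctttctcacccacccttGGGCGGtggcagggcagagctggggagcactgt
Nid1: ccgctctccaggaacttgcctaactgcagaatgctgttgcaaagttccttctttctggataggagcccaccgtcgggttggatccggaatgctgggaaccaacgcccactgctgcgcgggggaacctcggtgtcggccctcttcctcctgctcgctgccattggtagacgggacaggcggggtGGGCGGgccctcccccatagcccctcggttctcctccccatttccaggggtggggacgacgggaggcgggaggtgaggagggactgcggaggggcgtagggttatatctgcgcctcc

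Counting the transcript start as position 1, the GC box began at -178, -144 and -35 in the Itga3 window, at 18 in that of Lama2 and at -67 in that of Nid1. The Lamb3 window held none. Over all 32851 promoter windows of this length the GC box was found in 35.7%, and in 13 of the 26 windows of members. The AP-1 site TGANTCA, searched likewise, was in 7.81% of all windows and 3 of the 26, and TATAAA in 13.6% and 0 of the 26; neither was in the 4 windows shown. The Itga3 and Lamb3 genes have a further window each, not shown. Windows were given for 23 of the 35 members.

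Per kilobase of the gene length listed in the table, the highest members were Itgb1, the beta chain that pairs with most alpha chains, with a mean of 1970.2 over the 24 libraries, then Itga6 with 1410.0, Itgb4 with 1315 and Itgb5 with 938. The laminin chains of highest level per kilobase were Lamb3 with 612, Lama5 with 510.2 and Lama3 with 496. Lamc1, the gamma chain of most laminins, reached 453, Lamb2 324, Lamb1 276 and Nid1 233. Members of lowest level were 2 alpha chains of leukocytes, Itgal with 4.94 and Itgae with 9.61. Of the 8 members of highest level per kilobase, Itga6, Itgb4, Lamb3, Lama3 and Itga3 are known chains of keratinocyte attachment.

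**Figure D1:**
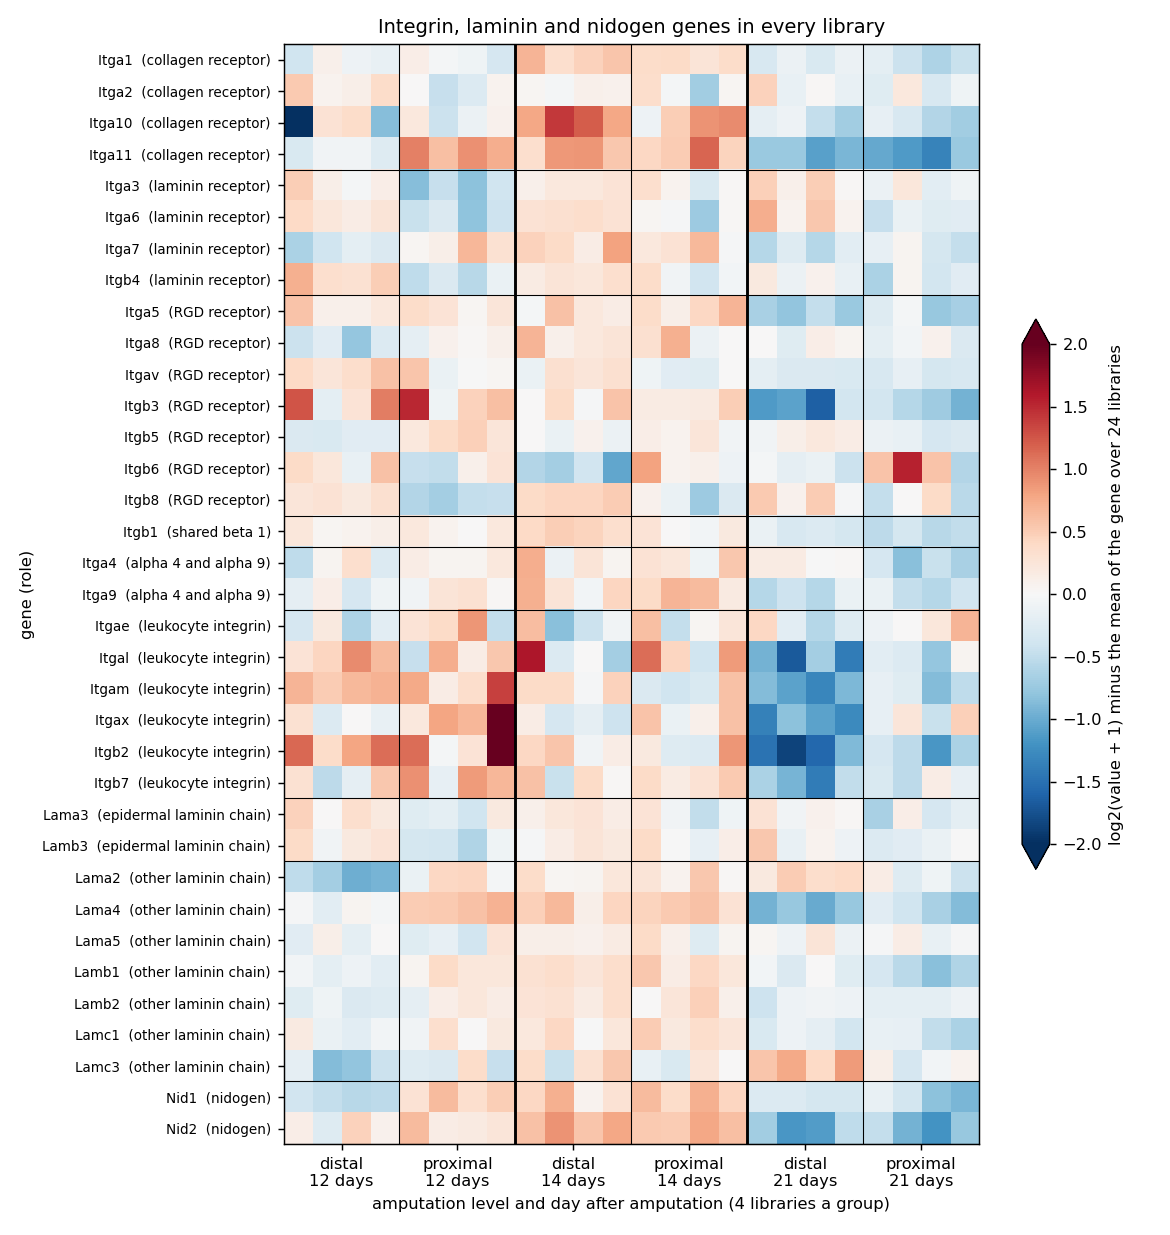
Each of the 35 genes (rows, by role) in each of the 24 libraries (columns, by day and amputation level), as log2(value + 1) minus the mean of that gene over all libraries; red is above and blue below that mean, and the scale ends at 2 in either direction. At 12 days the distal columns are blue for Lama2 and Nid1 where the proximal ones are near 0 or red, the proximal columns are red for Itga11, and the distal columns are red for Itgb4; the distal 21 day columns are blue for Itgb2, Itgam and Itgb3.

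At 12 days the members divided. After distal amputation 5 were higher, Itga3, Itga6, Itgb4, Itgb8 and Lamb3, by 1.46-fold to 1.78-fold. In the opposite direction 9 were lower, Itga7, Itga11, Itgax, Itgb5, Lama2, Lama4, Lamb1, Lamb2 and Nid1, by 1.24-fold to 2.11-fold. These are 14 of 35 members, where 20.3% of all genes were called (9.25% higher and 11% lower). The median of the members was -0.18 and that of all genes -0.03.

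By 14 days 2 members were called, both higher after distal amputation, Itgb8 and Itgb1, where 5.39% of all genes were called (3.06% higher and 2.32% lower), and the median of the members was 0.05 against 0.00 for all genes. The count of 2 fell to 0 without distal replicate 2, without distal replicate 3 or without proximal replicate 3, was 1 without proximal replicate 2, and was 3 without distal replicate 1. It was 1 with table totals and 1 when the compared groups were fitted alone.

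At 21 days 6 members were higher after distal amputation, Itga4, Itga6, Itgb5, Lama2, Lamb1 and Lamc3, and Itgax was lower. These are 7 of 35, where 17.6% of all genes were called (8.22% higher and 9.43% lower), a share near the members' 20%. The median of the members was 0.10 and that of all genes -0.05. With table totals as the scaling, which moves the median of all genes at 21 days to -0.19, 4 members were called higher and 6 lower. Itgb5 (0.18) and Lama2 (0.38) were then not called, and Itgam, Itgb2, Itgb6, Itgb7 and Lama4 were called lower beside Itgax. With median-ratio factors, which move that median to -0.007, the 7 calls held, and Itgb1 (0.26) and Itgb8 (0.48) were also called higher.

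**Figure D2:**
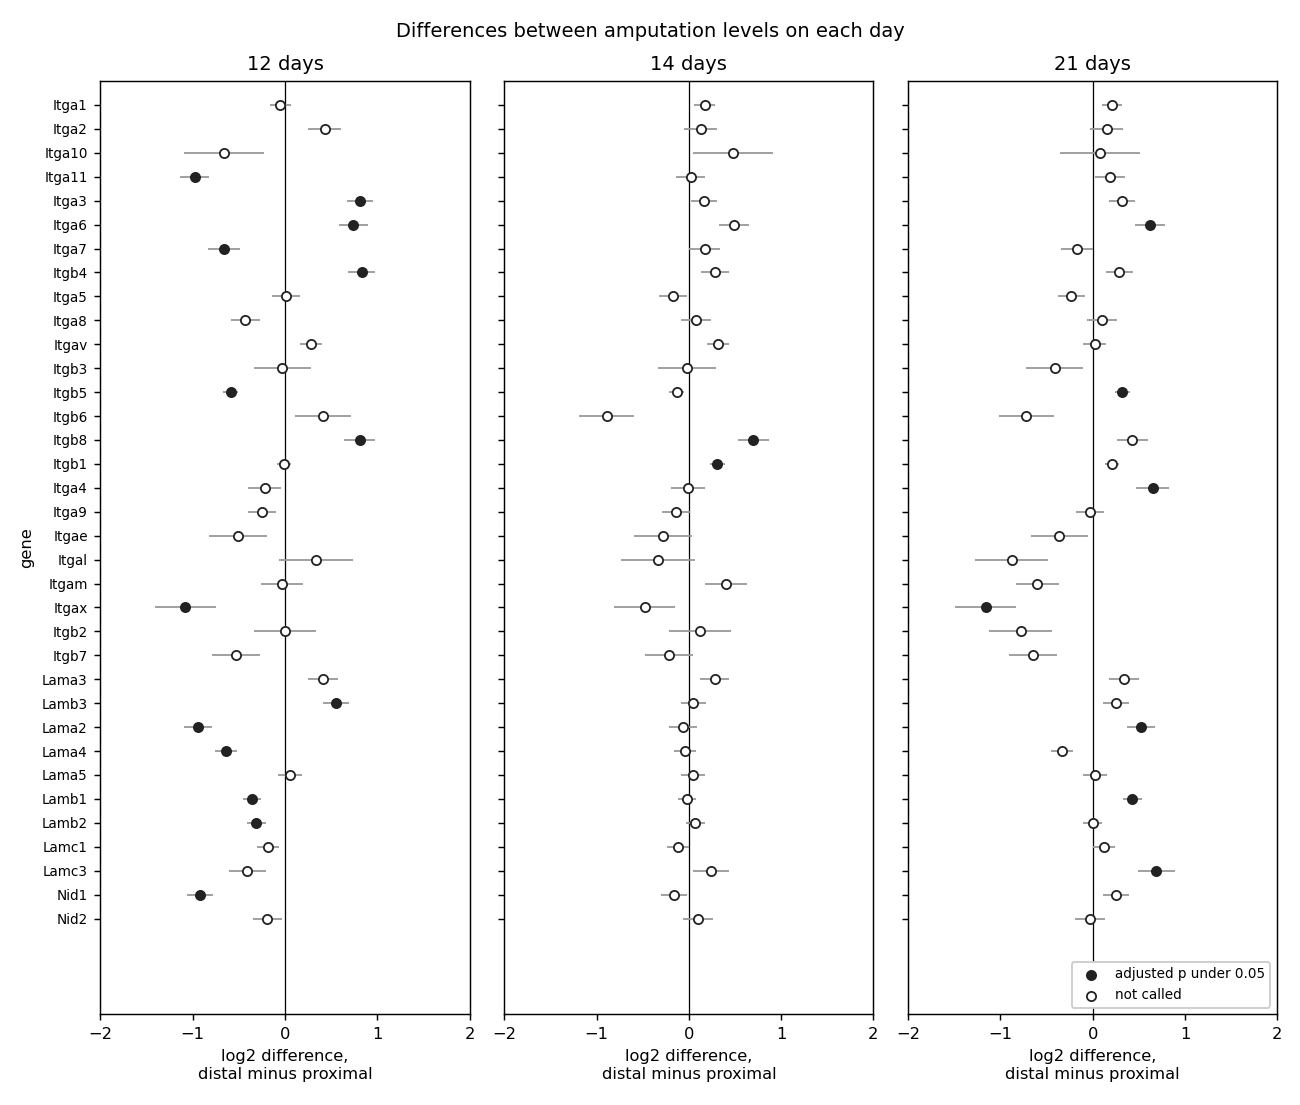
Log2 difference, distal minus proximal, of each of the 35 genes at 12, 14 and 21 days (panels), with standard errors as bars; filled points passed an adjusted p of 0.05. At 12 days 14 points are filled on both sides of 0, at 14 days 2, and at 21 days 7, of which Itgax alone lies left of 0.

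Among the laminin receptors, Itga6 and Itgb4, the 2 chains of the hemidesmosome integrin, were higher after distal amputation at 12 days. Itga6 (chromosome 2, 71745616 to 71858416) had 16198, 14366, 13569 and 14725 in distal libraries, against 9040, 10120, 7023 and 9283 in proximal libraries, 1.67-fold higher (log2 0.74 ± 0.16, adjusted p = 0.00203). Itgb4 (chromosome 11, 115974709 to 116008412) had 14610, 11278, 11076 and 12589 in distal libraries, against 6293, 7304, 6093 and 8170 in proximal libraries, 1.78-fold higher (log2 0.83 ± 0.15, adjusted p = 0.000335). For both, all 4 distal libraries lay above all 4 proximal ones. Itga3, whose chain pairs with beta 1 in keratinocytes and other epithelia (chromosome 11, 95044474 to 95076801), had 3775, 2902, 2630 and 2961 in distal libraries, against 1494, 1958, 1516 and 2048 in proximal libraries (log2 0.81 ± 0.14, adjusted p = 0.000342), again without overlap.

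Itga6 kept that direction on the later days. At 14 days it averaged 15289.5 ± 344 in distal and 11156 ± 2484 in proximal libraries and was not called (log2 0.49 ± 0.16, adjusted p = 0.0721), although the groups did not overlap. At 21 days it had 20372, 12983, 17902 and 12962 in distal libraries, against 8923, 11164, 10443 and 10552 in proximal libraries, and was called (log2 0.62 ± 0.16, adjusted p = 0.00969). Itgb4 was not called at 14 days (0.28 ± 0.15) or 21 days (0.29 ± 0.15), nor was Itga3 (0.16 ± 0.14 and 0.32 ± 0.14). After proximal amputation Itga3 rose between 12 and 14 days, by 0.67 ± 0.14 on the log2 scale, and it was higher at 21 than at 12 days as well (0.58 ± 0.14).

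Itga7, the laminin receptor chain known from muscle, went the other way at 12 days. It had 97, 115, 132 and 124 in distal libraries, against 156, 165, 241 and 187 in proximal libraries, lower without overlap (log2 -0.66 ± 0.17, adjusted p = 0.00714). It rose between 12 and 14 days after distal amputation, by 0.83 ± 0.17, with 210, 198, 169 and 265 at 14 days. The difference between levels in that change was 0.83 ± 0.23 (adjusted p = 0.0245), a call that ended without distal 12 day replicate 1 (0.74), distal 14 day replicate 4 (0.71), proximal 12 day replicate 3 (0.70) or proximal 14 day replicate 4 (0.73). Of 5 skeletal muscle markers 1 was measured, Acta1, at 151, 22, 19 and 30 in distal and 5 to 22 in proximal libraries at 12 days. It was called higher at 12 days (2.08) and lower in the difference between levels in the 12 to 14 day change (-3.97). Of 5 smooth muscle and pericyte markers 0 were called in either, with 2 positive at 12 days (-0.51 to 0.35) and 4 positive in that difference (-0.40 to 0.90). The part of muscle of either kind in the Itga7 result was not tested.

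Among chains of the epidermal laminin, Lamb3 was higher at 12 days. Lamb3, the beta 3 chain (chromosome 1, 193207699 to 193343878), had 5177, 3811, 4557 and 4786 in distal libraries, against 3123, 3095, 2625 and 3730 in proximal libraries (log2 0.55 ± 0.14, adjusted p = 0.00762). The groups did not overlap, and distal replicate 2 and proximal replicate 4 were the libraries of each that came nearest to the other. Lama3, the alpha 3 chain, averaged 6271 ± 820.3 in distal and 4743 ± 872 in proximal libraries; its difference was positive but not called (log2 0.41 ± 0.16, adjusted p = 0.0657), and the groups overlapped. Neither chain was called between levels at 14 or 21 days, with differences of 0.05 to 0.34.

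Basal keratinocyte markers were not called at 12 days, when Itga6, Itgb4 and Lamb3 were. The 4 markers, Krt5, Krt14, Krt15 and Trp63, summed to 128368 to 192482 in distal and 111130 to 177484 in proximal libraries. Of these 4, 3 were positive and 0 were called, with differences of -0.12 to 0.33. At 21 days, where Itga6 was higher, 0 of 4 were positive (-0.82 to -0.20). Krt5 was called lower there (-0.77 ± 0.23, adjusted p = 0.0223), which was no longer called without distal replicate 1 (-0.61) or proximal replicate 3 (-0.69). In these mixed tissues fewer cells of a type and less RNA per cell cannot be told apart. The part of keratinocyte number in the values of Itga6, Itgb4 and Lamb3 was not tested.

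Among the collagen receptors, Itga11, the alpha chain of fibroblasts that binds fibrillar collagen, was lower after distal amputation at 12 days. Itga11 (chromosome 9, 62677826 to 62783982) had 512, 599, 602 and 531 in distal libraries, against 1268, 955, 1188 and 1048 in proximal libraries, 1.98-fold lower (log2 -0.98 ± 0.16, adjusted p = 0.000134). At 14 days the levels met, with 799, 1158, 1171 and 919 in distal libraries, against 846, 898, 1423 and 860 in proximal libraries (0.02 ± 0.16, not called). By 21 days both were low, with 378, 378, 296 and 336 in distal libraries, against 310, 289, 251 and 377 in proximal libraries. Itga11 thus rose between 12 and 14 days after distal amputation (0.83 ± 0.16) and then fell, and it was not called between these days after proximal amputation (-0.17 ± 0.16). Between the first and last day it fell by 0.69 ± 0.16 after distal and by 1.87 ± 0.16 after proximal amputation, and these changes differed by 1.17 ± 0.22 (adjusted p = 0.0011).

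The other collagen receptor chains were not called between levels on any day. Itga10, the chain known from cartilage, had 21, 176, 185 and 79 in distal libraries at 12 days and 247, 384, 332 and 245 at 14 days, a rise of 1.77 ± 0.43 (adjusted p = 0.00584). Much of that size rests on the library with 21: without distal 12 day replicate 1 the rise was 1.11, still called, and when the compared groups were fitted alone it was not called (adjusted p = 0.0658). Summed over 4 cartilage markers, these distal groups stood at 971 to 2221 at 12 days and 2116 to 4680 at 14 days; the part of cartilage in the rise was not tested. Itga1 rose by 0.65 ± 0.11 over the same days after distal amputation, and Itga2, the collagen receptor of keratinocytes and platelets, was not called in that comparison (-0.22 ± 0.18).

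The RGD receptors, which bind fibronectin, vitronectin and the latent form of TGF-beta through an RGD peptide, held the member with the smallest adjusted p between levels. Itgb5 (chromosome 16, 33829665 to 33949338), a beta chain that pairs with alpha V, had 2539, 2511, 2661 and 2672 in distal libraries, against 3614, 4055, 4314 and 3684 in proximal libraries at 12 days, lower without overlap (log2 -0.59 ± 0.08, adjusted p = 1.49e-05). At 21 days the order was turned round, with 2978, 3389, 3596 and 3455 in distal libraries, against 2869, 2808, 2482 and 2560 in proximal libraries (log2 0.32 ± 0.08, adjusted p = 0.00656). Through 12, 14 and 21 days the mean went 2596 ± 82.6, 3039 ± 221 and 3355 ± 265 after distal amputation and 3917 ± 328, 3338 ± 301 and 2679.8 ± 188 after proximal amputation. The change from 12 to 21 days was 0.37 ± 0.08 and -0.55 ± 0.08 at these levels, a difference of 0.91 ± 0.11 (adjusted p = 1.47e-05). With table totals the 12 day difference and the difference in change were still called, and the 21 day one was not (0.18).

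Itgb8, a beta chain that pairs with alpha V and takes part in releasing TGF-beta, was higher after distal amputation on the first 2 of these days. Itgb8 (chromosome 12, 119158022 to 119238802) had 1311, 1352, 1274 and 1395 in distal libraries, against 737, 696, 803 and 807 in proximal libraries at 12 days (log2 0.81 ± 0.17, adjusted p = 0.00178). At 14 days it had 1444, 1495, 1501 and 1575 in distal libraries, against 1176, 1011, 671 and 913 in proximal libraries (log2 0.70 ± 0.17, adjusted p = 0.0212). The groups were apart on both days, but the 14 day call ended without distal replicate 2 (0.70), distal replicate 3 (0.70) or proximal replicate 3 (0.55). At 21 days its libraries overlapped, with 1099 to 1599 in distal and 768 to 1453 in proximal libraries (0.43 ± 0.17, not called). With median-ratio factors that 21 day difference was called (0.48).

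Itgb6, a beta chain of wounded epithelium that also pairs with alpha V, was not called between levels on any day. At 14 days it had 157, 147, 181 and 115 in distal libraries, against 412, 249, 254 and 220 in proximal libraries, apart but not called (log2 -0.89 ± 0.30, adjusted p = 0.0835). Its change from 12 to 14 days differed between levels by -1.30 ± 0.42 (adjusted p = 0.0491), a call that is at the threshold: without distal 12 day replicate 3, proximal 12 day replicate 4 or proximal 14 day replicate 4 it held, and without any other library of these groups it ended (-1.10 to -1.39), as it did with a pseudocount of 8, with table totals, with the replicate number as a block and without a variance trend (-1.23 to -1.30). Itgav, the alpha chain shared by these receptors, and Itga5, the alpha chain of the fibronectin receptor, were not called between levels (-0.23 to 0.32 over the days). Both fell from 12 to 21 days, Itga5 by 0.91 ± 0.15 after distal and by 0.66 ± 0.15 after proximal amputation, and Itgav by 0.67 ± 0.12 after distal and by 0.41 ± 0.12 after proximal amputation. The proximal call of Itgav ended without proximal 12 day replicate 1 (-0.26).

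Itgb3, the beta chain of osteoclasts and platelets, was not called between levels on any day (-0.03 ± 0.31 at 12, -0.02 ± 0.31 at 14 and -0.41 ± 0.31 at 21 days). It had 1059, 386, 536 and 902 in distal libraries, against 1258, 415, 608 and 674 in proximal libraries at 12 days, with wide spread in both groups. From 12 to 21 days it fell by 1.65 ± 0.31 after distal and by 1.27 ± 0.31 after proximal amputation. The 6 osteoclast markers measured of 7 summed to 15362 to 51189 in distal and 7024 to 57877 in proximal libraries at 12 days and to 2804 to 8328 in distal and 4292 to 6180 in proximal libraries at 21 days. The library with the highest Itgb3 (1258) was also the one with the highest osteoclast sum, 57877. Between levels all 6 markers were positive at 12 days (0.39 to 1.64) and at 14 days (0.41 to 1.28), where Itgb3 was at -0.03 and -0.02. At 21 days 0 of the 6 were positive (-0.79 to -0.08), and 0 were called on any of these days. The part of osteoclasts in the values and the fall of Itgb3 was not tested. Itga2b, the alpha chain that pairs with beta 3 in platelets and no member by its name, ran only from 135 to 213 over all 24 libraries.

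Itgb1 was the other member called at 14 days. It had 10362, 11022, 10728 and 9911 in distal libraries, against 9517, 7898, 7597 and 8969 in proximal libraries (log2 0.31 ± 0.08, adjusted p = 0.0238), apart but by 1.24-fold. That call ended without distal replicate 2 (0.29), distal replicate 3 (0.30), proximal replicate 2 (0.28) or proximal replicate 3 (0.26), with table totals (0.32) and when the compared groups were fitted alone (0.31). At 12 days it was not called, with 8527 ± 506 in distal and 8576 ± 586 in proximal libraries (-0.01 ± 0.08).

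Itga4, the alpha chain of the VCAM-1 and fibronectin receptor of leukocytes and some mesenchyme, was called at 21 days. It had 159, 159, 141 and 145 in distal libraries, against 112, 79, 104 and 90 in proximal libraries (log2 0.65 ± 0.18, adjusted p = 0.0136), without overlap, and at 12 days 100, 148, 180 and 117 in distal libraries, against 158, 148, 148 and 165 in proximal libraries (-0.22 ± 0.18, not called). The change from 12 to 21 days was 0.18 ± 0.18 after distal and -0.69 ± 0.18 after proximal amputation, and the difference of 0.87 ± 0.25 (adjusted p = 0.0205) was not called without distal 12 day replicate 1 (0.74) or with table totals (0.78). The 6 leukocyte markers summed at 21 days to 513 to 771 in distal and 927 to 1138 in proximal libraries. The part of leukocytes or mesenchyme in the values of Itga4 was not tested. Itga9, a related alpha chain, was not called between levels on any day (-0.25 to -0.03).

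Of the 6 integrins of leukocytes, 5 fell from 12 to 21 days after distal amputation (Itgal, Itgam, Itgax, Itgb2 and Itgb7) and 4 after proximal amputation (Itgam, Itgax, Itgb2 and Itgb7), where 15% and 17% of all genes were called lower. The distal falls of Itgax and Itgb7 were not called without distal 12 day replicate 1 (-0.99) and without distal 12 day replicate 1 or 4 or distal 21 day replicate 3 (-0.72 to -0.81), and the proximal ones without proximal 12 day replicate 4 or proximal 21 day replicate 1 or 3 (-0.53 to -0.96) and without proximal 12 day replicate 1, 3 or 4 or proximal 21 day replicate 1, 2 or 4 (-0.66 to -0.79). Itgb2, the beta chain of neutrophils, macrophages and lymphocytes, had 463, 267, 360 and 451 in distal libraries, against 452, 202, 251 and 866 in proximal libraries at 12 days. At 21 days it had 74, 57, 69 and 112 in distal libraries, against 165, 144, 92 and 134 in proximal libraries. Between 12 and 21 days it fell by 2.30 ± 0.34 on the log2 scale after distal amputation (adjusted p = 6.04e-05) and fell by 1.51 ± 0.34 after proximal amputation (adjusted p = 0.00218), while the difference between these falls was not called (log2 -0.79 ± 0.49, adjusted p = 0.3). Itgam, the alpha chain CD11b, fell by 1.67 ± 0.23 after distal and by 1.10 ± 0.23 after proximal amputation. Itgal, the alpha chain of lymphocyte LFA-1, fell by 1.75 ± 0.40 after distal amputation and was not called after proximal amputation (-0.54 ± 0.40); the difference was not called (-1.22 ± 0.56).

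Itgax, the alpha chain CD11c of dendritic cells and some macrophages, was the leukocyte member lower after distal amputation. At 21 days it had 35, 51, 43 and 37 in distal libraries, against 81, 108, 67 and 127 in proximal libraries, apart (log2 -1.16 ± 0.33, adjusted p = 0.0187), but not called without distal replicate 1 (-1.08), proximal replicate 2 (-1.09) or proximal replicate 4 (-1.01). At 12 days it had 113, 75, 92 and 82 in distal libraries, against 106, 159, 145 and 530 in proximal libraries, overlapping (log2 -1.08 ± 0.33, adjusted p = 0.0233). The library with 530, proximal replicate 4, decides the size: without it the difference was -0.59, not called, and the call also ended without distal replicate 2 (-0.99) or distal replicate 4 (-1.04) and when the compared groups were fitted alone. In that library Itgb2 and Itgam were likewise the highest of the 24, at 866 and 464. Itgae and Itgb7 were not called between levels on any day.

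Leukocyte markers were lower at 21 than at 12 days too, 5 of 6 after distal and 4 of 6 after proximal amputation. The 6 markers (Ptprc, Cd53, Laptm5, Coro1a, Spi1 and Cd52) summed to 1533 to 1955 in distal and 1538 to 2253 in proximal libraries at 12 days and to 513 to 771 in distal and 927 to 1138 in proximal libraries at 21 days, where 3 of the 6 were called lower after distal amputation. None of the 6 was at 0 in any library. Of 5 macrophage markers 3 were lower after each amputation, with sums at 12 days of 1927 to 3155 in distal and 2084 to 3746 in proximal libraries and at 21 days of 965 to 1397 in distal and 1219 to 1800 in proximal libraries. The 3 neutrophil markers measured of 6 (Csf3r, S100a8 and S100a9) did not follow them: after distal amputation 2 were lower and 0 higher, and after proximal amputation 1 was higher and 0 lower. Their sums were 1181 to 2728 in distal and 98 to 372 in proximal libraries at 12 days and 100 to 349 in distal and 253 to 5965 in proximal libraries at 21 days, and all 3 changes differed between levels (-6.28 to -3.31). None of these was at 0 in any library. The part of leukocyte number in the values of Itgb2, Itgam, Itgal and Itgax was not tested.

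Among the other laminin chains, Lama2, the alpha 2 chain of muscle, nerve and mesenchymal basement membranes, showed the largest difference between levels of the 35 members in the change from 12 to 21 days. Lama2 (chromosome 10, 26980036 to 27619758) had 701, 620, 503 and 521 in distal libraries, against 908, 1323, 1340 and 969 in proximal libraries at 12 days, 1.92-fold lower (log2 -0.94 ± 0.15, adjusted p = 0.000104). At 14 days the groups overlapped, with 1279, 1019, 1027 and 1167 in distal libraries, against 1190, 1049, 1450 and 1012 in proximal libraries. At 21 days the distal libraries were the higher ones, with 1135, 1407, 1274 and 1313 in distal libraries, against 1103, 828, 940 and 739 in proximal libraries (log2 0.52 ± 0.15, adjusted p = 0.018). All 4 distal libraries were below all proximal ones on the first day and above them on the last. The 21 day call ended without distal replicate 2 (0.47), proximal replicate 2 (0.48) or proximal replicate 4 (0.43) and with table totals (0.38).

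From 12 to 21 days Lama2 rose after distal amputation (log2 1.14 ± 0.15, adjusted p = 1.38e-05) and was not called after proximal amputation (-0.32 ± 0.15), and the changes differed by 1.46 ± 0.21 (adjusted p = 7.98e-05). Lamc3, a gamma chain found in skin, nerve and other tissues, did likewise: it rose after distal amputation (log2 1.21 ± 0.20, adjusted p = 0.00016) and was not called after proximal amputation (0.11 ± 0.20), a difference of 1.11 ± 0.28 (adjusted p = 0.0106). At 21 days Lamc3 had 627, 727, 566 and 771 in distal libraries, against 462, 337, 413 and 451 in proximal libraries (log2 0.69 ± 0.20, adjusted p = 0.0208), apart, though the call ended without distal replicate 2 (0.65), distal replicate 4 (0.62) or proximal replicate 2 (0.60). Schwann cell markers, whose cells make Lama2, had 0 of 5 called between levels on each day. The distal change of these markers from day 12 to day 21, less the proximal one, was called for 0 of 5. It was positive for 1 of 5 (-1.06 to 0.21). The part of Schwann cells in the values of Lama2 and Lamc3 was not tested.

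Lamb1, the beta 1 chain of most laminins outside epidermis, changed sides with a smaller size. It had 2574, 2324, 2481 and 2304 in distal libraries, against 2773, 3452, 3107 and 3105 in proximal libraries at 12 days (log2 -0.36 ± 0.10, adjusted p = 0.0115), and 2561, 2170, 2674 and 2241 in distal libraries, against 2100, 1830, 1489 and 1756 in proximal libraries at 21 days (log2 0.43 ± 0.10, adjusted p = 0.00431), apart on both days. From 12 to 21 days it fell by 0.80 ± 0.10 after proximal amputation and was not called after distal amputation (-0.01 ± 0.10), a difference of 0.79 ± 0.14 (adjusted p = 0.000528). Lamb2, the beta 2 chain, was lower at 12 days by 1.24-fold and with overlap (log2 -0.31 ± 0.10, adjusted p = 0.0288), and that call ended without distal replicate 1, 3 or 4 or proximal replicate 2, 3 or 4 (-0.26 to -0.30).

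Lama4, the alpha 4 chain of vessels, fat and muscle, was lower after distal amputation at 12 days. It had 1138, 995, 1199 and 1120 in distal libraries, against 1642, 1670, 1730 and 1877 in proximal libraries, apart (log2 -0.64 ± 0.12, adjusted p = 0.00053). From 12 to 14 days it rose by 0.48 ± 0.12 after distal amputation, and that change differed from the proximal one by 0.59 ± 0.16 (adjusted p = 0.0221). By 21 days it had fallen after both amputations, to 603, 683, 574 and 687 in distal libraries and 990, 875, 740 and 631 in proximal libraries (log2 -0.33 ± 0.12, adjusted p = 0.054). The 6 endothelial markers had 0 called between levels on each day, with sums at 12 days of 3934 to 4683 in distal and 3656 to 4792 in proximal libraries. From 12 to 21 days 4 of the 6 were lower after distal and 1 after proximal amputation, to sums of 1802 to 3203 in distal and 2531 to 3876 in proximal libraries, and from 14 to 21 days all 6 were lower after each. From 12 to 14 days 0 of the 6 were called after distal amputation (0.09 to 0.52) and 4 were higher after proximal amputation (0.38 to 0.73). In the difference between levels in that change 0 of the 6 were called and 0 were positive (-0.42 to -0.15). The part of endothelium in the rise and fall of Lama4 was not tested. Lama5, the broadly expressed alpha 5 chain, varied little: its differences between levels were 0.05 ± 0.13, 0.05 ± 0.13 and 0.03 ± 0.13 at 12, 14 and 21 days, and it was called in none of the 11 comparisons. Lamc1 was not called between levels on any day (-0.18 to 0.12).

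Of the nidogens, Nid1 was lower after distal amputation at 12 days and Nid2 was not called. Nid1 (chromosome 13, 13437551 to 13512269) had 1170, 1104, 1040 and 1066 in distal libraries, against 1876, 2372, 1933 and 2160 in proximal libraries, 1.90-fold lower without overlap (log2 -0.92 ± 0.14, adjusted p = 7.11e-05). At 14 days it had 2036, 2511, 1603 and 1876 in distal libraries, against 2377, 1979, 2499 and 2053 in proximal libraries, overlapping (-0.16 ± 0.14). At 21 days it had 1269, 1264, 1202 and 1203 in distal libraries, against 1386, 1187, 868 and 814 in proximal libraries (0.25 ± 0.14, not called). The distal libraries thus stood low on the first and last day and high between, while the proximal ones were high on the first 2 days.

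Between 12 and 21 days Nid1 was not called after distal amputation (0.17 ± 0.14) and fell by 1.00 ± 0.14 after proximal amputation, a difference of 1.17 ± 0.20 (adjusted p = 0.000403). Nid2 fell after both, by 0.98 ± 0.16 after distal and by 1.15 ± 0.16 after proximal amputation, and the difference was not called (0.17 ± 0.23). Whether the 2 nidogens differ from each other in this was not tested. Fibroblast markers (Pdgfra, Col1a1, Dpt and Lum) summed to 119279 to 248564 in distal and 201716 to 327296 in proximal libraries at 12 days and to 87600 to 127675 in distal and 61957 to 103578 in proximal libraries at 21 days. Between levels 0 of these 4 were positive at 12 days (-0.63 to -0.24, 1 called lower). At 21 days 4 of 4 were positive (0.01 to 1.11, 1 called higher). When the 12 to 21 day changes of the levels were set against each other, where Nid1, Lama2 and Itga11 were called, these markers had 4 of 4 positive values (0.52 to 1.35, 1 called higher). The 4 cartilage markers had 4 of 4 positive values there too (1.51 to 3.61, 2 called higher). Between levels 0 of these cartilage markers were positive at 12 days (-2.25 to -0.87, 2 called lower) and 3 at 21 days (-0.61 to 2.16, 1 called higher). Nid1, Lama2 and Itga11 were also called for the difference in the 12 to 14 day change. There 4 of 4 fibroblast markers (0.60 to 1.24, 2 called higher) and 4 of 4 cartilage markers (1.11 to 2.34, 0 called) were positive. The part of either list in the values of these genes was not tested.

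**Figure D3:**
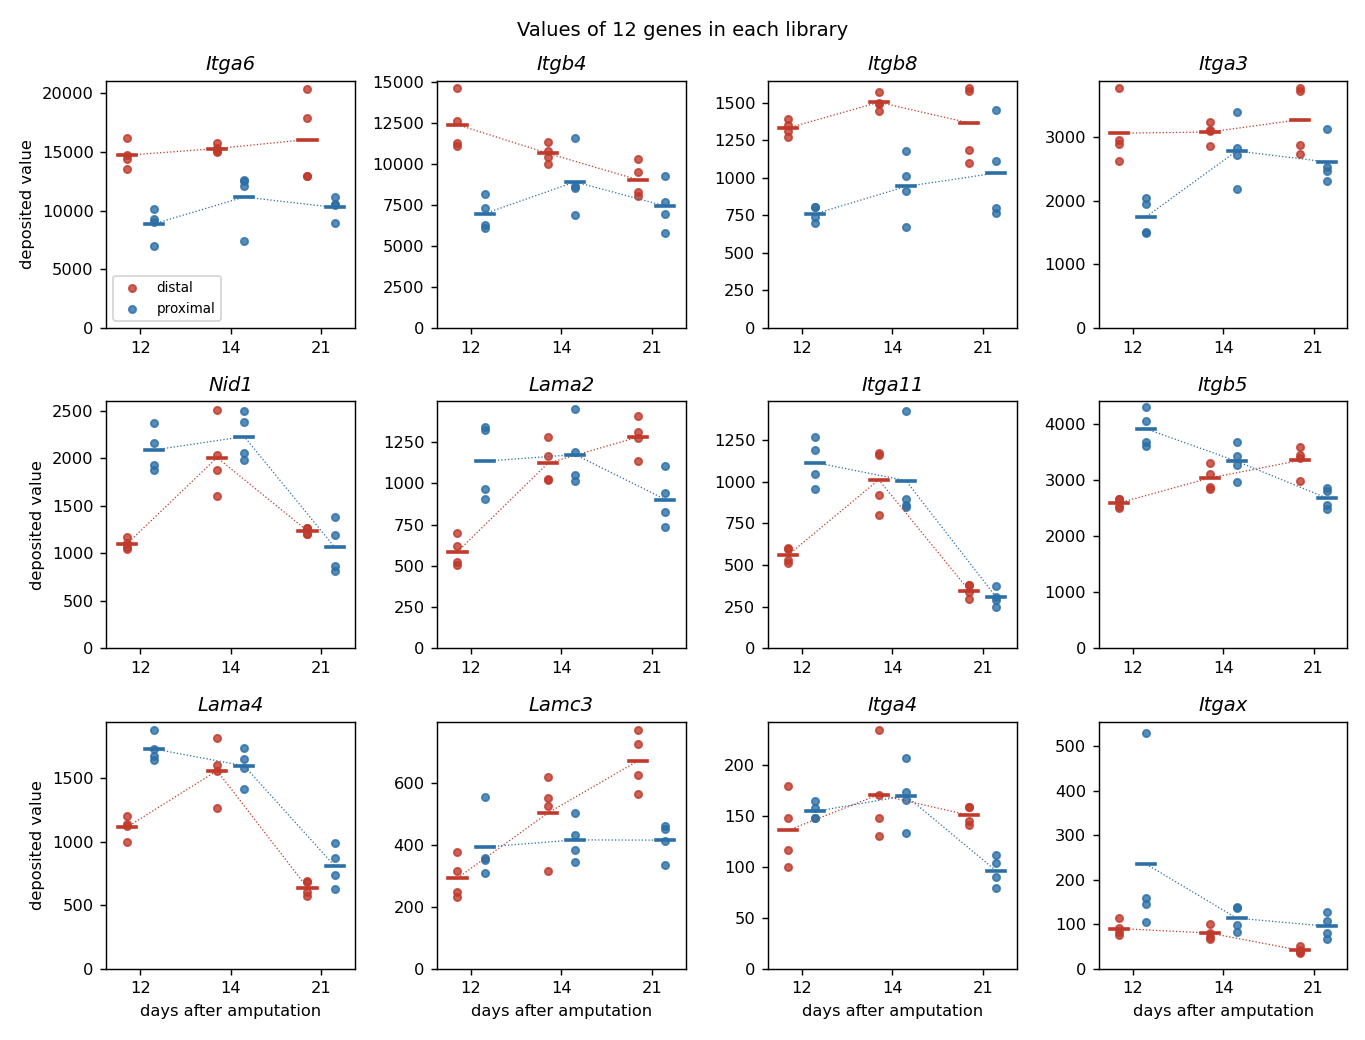
Deposited values of 12 genes in each library (points) at 12, 14 and 21 days, with the group mean as a bar and dotted lines joining the means; distal in red, left, and proximal in blue, right, each axis starting at 0 and the days evenly spaced. Nid1, Lama2, Itga11, Itgb5 and Lama4 start lower in distal libraries at 12 days, and Lama2 and Itgb5 end higher there at 21 days, while Itga3, Itga6, Itgb4 and Itgb8 start higher.

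Over time after distal amputation, 16 of 35 members were called between 21 and 12 days, 3 higher (Itgb5, Lama2 and Lamc3) and 13 lower, where 23.8% of all genes were called (8.81% higher and 15% lower). After proximal amputation 20 were called, 1 higher (Itga3) and 19 lower, where 29% of all genes were called (12% higher and 17% lower). Medians of the members were -0.16 after distal and -0.48 after proximal amputation, with those of all genes at -0.02 and -0.01. Among the calls toward lower, 3 in the distal and 5 in the proximal comparison ended on leaving out 1 of the 8 libraries. For 7 members the change itself differed, Itga4, Itga11, Itgb5, Lama2, Lamb1, Lamc3 and Nid1, each toward higher after distal amputation, where 14.8% of all genes were called (7.42% in each direction). The median of this difference was 0.15 over the members and -0.01 over all genes.

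**Figure D4:**
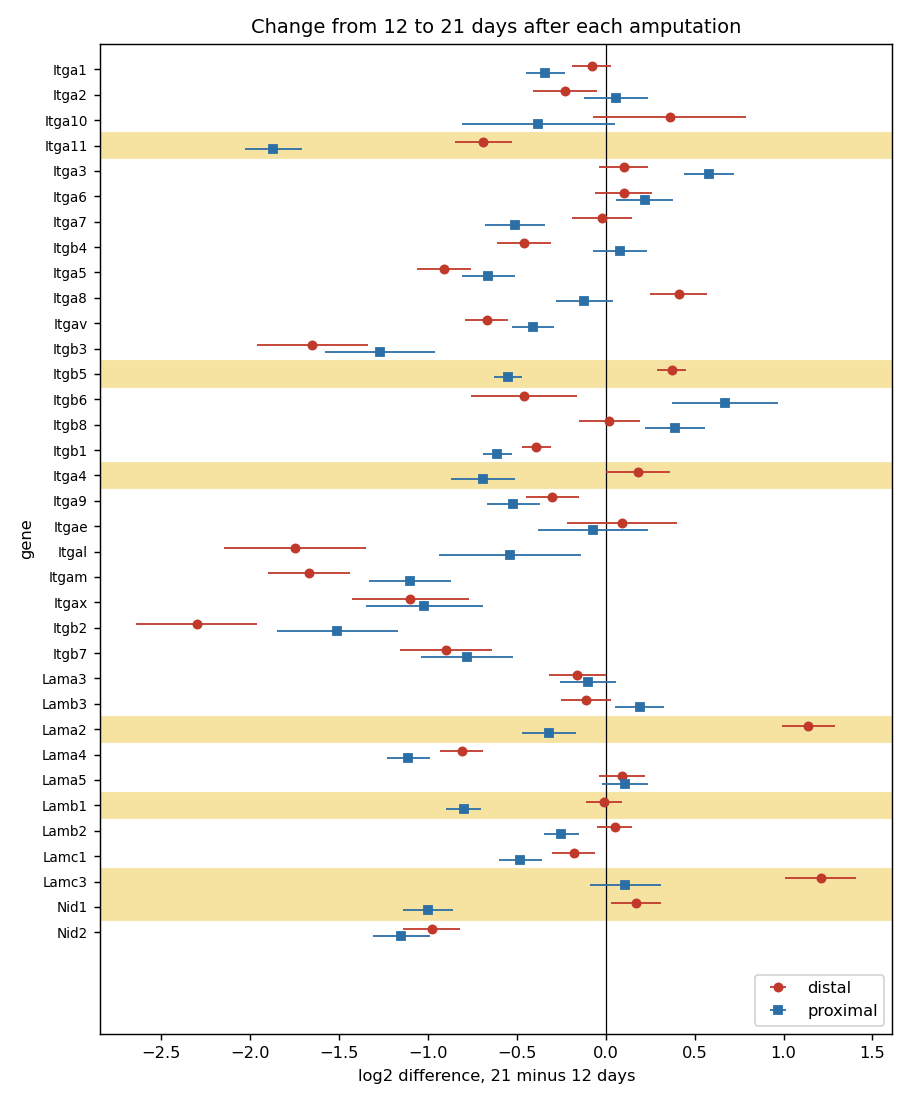
Log2 difference between 21 and 12 days of each of the 35 genes after distal (red circles) and proximal (blue squares) amputation, with standard errors as bars; shaded rows mark the 7 genes whose change differed between levels. In each shaded row the red circle lies to the right of the blue square, and the largest gap is that of Lama2, 1.14 against -0.32.

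The 14 day libraries were set against the earlier and later ones in 5 comparisons added after the values had been seen. Between 12 and 14 days after distal amputation 15 members rose and 1, Itgb6, fell, where 19.4% of all genes were called (11.2% higher and 8.12% lower). The risers included 5 of the 7 laminin chains outside the epidermal laminin (Lama2, Lama4, Lamb1, Lamb2 and Lamc3), both nidogens (Nid1 by 0.86 ± 0.14 and Nid2 by 0.60 ± 0.16), 3 of 4 collagen receptors and Itgb1 (0.30 ± 0.08). The call of Itgb5 (0.23) ended without distal 12 day replicate 1, 2, 3 or 4 or distal 14 day replicate 1 or 3 (0.18 to 0.24), with table totals, with median-ratio factors and without a variance trend, and that of Itga9 (0.45) without distal 12 day replicate 1, 3 or 4 or distal 14 day replicate 1, 2 or 4 (0.33 to 0.48), with table totals, with array weights and when the compared groups were fitted alone. With table totals 13 members rose. The call of Nid2 ended without distal 12 day replicate 2 (0.48) and that of Itgb6 without distal 12 day replicate 1, 2 or 4 or distal 14 day replicate 2 or 4 (-0.81 to -0.95). Neither Lama3 (-0.07) nor Lamb3 (-0.05) was among them. Over the same days 3 of 4 fibroblast markers and 3 of 5 markers of smooth muscle and pericytes were called higher after distal amputation and 0 lower, with sums of fibroblast markers of 119279 to 248564 at 12 days and 272096 to 527813 at 14 days; their part in these rises was not tested.

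After proximal amputation 3 members rose over the same days (Itga1, Itga3 and Lamb3) and 2 fell (Itgam and Itgb5), where 15.2% of all genes were called (7.35% higher and 7.84% lower). The call of Itgam ended without proximal 12 day replicate 1 or 4 or proximal 14 day replicate 1, 2 or 3 (-0.53 to -0.72), that of Itgb5 without proximal 12 day replicate 2 or 3 or proximal 14 day replicate 1, 2 or 4 (-0.18 to -0.25) and that of Lamb3 without proximal 12 day replicate 1, 2 or 3 or proximal 14 day replicate 1 or 4 (0.34 to 0.44). That count of 5 was 3 without proximal 12 day replicate 2 or 3, 3 without proximal 14 day replicate 2 or 4 and 2 without proximal 14 day replicate 1. It was 1 up and 2 down with table totals, which move the median of all genes in this comparison to -0.10, and 2 when the compared groups were fitted alone. For 8 members the levels differed in this change, where 11.7% of all genes were called (6.61% higher and 5.08% lower). Higher after distal amputation were Itga7, Itga11 (1.01 ± 0.22), Itgb5 (0.46 ± 0.11), Lama2 (0.89 ± 0.21), Lama4 and Nid1 (0.76 ± 0.20), and lower were Itga3 (-0.65 ± 0.20) and Itgb6. With table totals these were 6 and 0, without distal 12 day replicate 1 they were 5 in all, and the Itga3 call ended without distal 12 day replicate 1 or 4 or distal 14 day replicate 1, 2 or 3 or proximal 12 day replicate 1 or 3 or proximal 14 day replicate 1, 2 or 4 (-0.54 to -0.66).

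Between 14 and 21 days members only fell among those called. After distal amputation 20 fell and 0 rose, where 34.8% of all genes were called (21.5% lower and 13.3% higher), with a median of -0.46 against -0.04 for all genes. After proximal amputation 15 fell and 0 rose, where 28.7% of all genes were called (16.3% lower and 12.5% higher), with a median of -0.38 against -0.00 for all genes. With table totals, which move that median of all genes to 0.11, 12 fell and 0 rose after proximal amputation. Nid2 fell by 1.58 ± 0.16 after distal and by 1.45 ± 0.16 after proximal amputation, and Itga11 fell by 1.53 ± 0.16 after distal and by 1.69 ± 0.16 after proximal amputation. Markers of several cell types fell over the same days. After distal amputation 6 of 6 endothelial, 6 of 6 osteoclast, 4 of 4 osteoblast, 5 of 6 leukocyte, 3 of 4 fibroblast and 3 of 5 smooth muscle and pericyte markers were called lower. After proximal amputation 6 of 6 endothelial, 3 of 6 osteoclast, 3 of 4 osteoblast, 3 of 6 leukocyte, 3 of 4 fibroblast and 2 of 5 smooth muscle and pericyte markers were, and 0 markers of these lists were higher after either. Of 5 macrophage markers 3 were lower after distal and 1 after proximal amputation, and 0 were higher. Of 4 cartilage markers 2 were lower after distal and 3 after proximal amputation, and 0 were higher. Some other lists did not fall alike. Of 4 basal keratinocyte markers 0 were lower after either amputation, and 1 was higher after proximal amputation (range of the 4, 0.17 to 1.31). Of 5 Schwann cell markers 1 was higher and 1 lower after distal amputation, and 0 were called after proximal amputation. Of 3 neutrophil markers 2 were lower after distal and 0 after proximal amputation. The part of any of these cell types in the falls of the members was not tested. These comparisons share the 14 day libraries with those between 12 and 14 days.

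Other genes of the same structures were counted from 4 lists. Beside these counts, 9.25% of all genes were called higher and 11% lower at 12 days, 3.06% and 2.32% at 14 days, 8.22% and 9.43% at 21 days, and 7.42% each way in the difference in change. Of 24 basement membrane genes 1 was higher and 6 were lower after distal amputation at 12 days, with a median of -0.20. Of the lower ones the largest differences were those of Smoc1 (-2.30 ± 0.41), Hmcn1, hemicentin (-1.63 ± 0.19), and Frem1, a matrix protein under the epidermis (-1.44 ± 0.22); the call of Col4a3 (-0.98 ± 0.35) ended without any 1 of 7 of the 8 libraries. At 21 days 5 were higher and 0 lower, with a list median of -0.05, led by Fras1, a partner of Frem1 (1.31 ± 0.18), and by the collagen IV chains Col4a1 (1.07 ± 0.14) and Col4a2 (1.07 ± 0.14), to which nidogens link laminin. The 21 day call of Col4a5 (0.62) ended when the compared groups were fitted alone and without distal replicate 1 or 3 or proximal replicate 2 or 3 (0.47 to 0.58). The change from 12 to 21 days differed toward higher after distal amputation for 8 of the 24 and toward lower for 0, led by Smoc1 (1.78 ± 0.58), Hmcn1 (1.47 ± 0.27), Frem1 (1.42 ± 0.31) and Col4a2 (1.35 ± 0.20). That call of Smoc1 ended with table totals (1.70) and without any 1 of 11 of the 16 libraries (1.54 to 1.82). The call of Fras1 (0.82) ended without distal 12 day replicate 4, distal 21 day replicate 1, 3 or 4, proximal 12 day replicate 1 or 4 or proximal 21 day replicate 2 or 3 (0.69 to 0.80). That of Smoc2 (0.58) ended with table totals (0.48) and without distal 12 day replicate 2 or 4, distal 21 day replicate 1 or 4, proximal 12 day replicate 3 or proximal 21 day replicate 1 (0.47 to 0.56).

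Among 5 hemidesmosome and anchoring genes at 12 days, Cd151, a tetraspanin bound to laminin receptors, was higher (0.42 ± 0.09), and Col7a1, the collagen of anchoring fibrils, was lower (-0.91 ± 0.21); the median of the 5 was 0.07. At 21 days 3 of the 5 were higher and 0 lower, Cd151 (0.40 ± 0.09), Col17a1, a collagen of hemidesmosomes (0.63 ± 0.19), and Col7a1 (0.65 ± 0.21). The Cd151 call at 21 days ended with table totals (0.26), that of Col7a1 with table totals, when the compared groups were fitted alone or without distal 21 day replicate 1, 3 or 4 or proximal 21 day replicate 2, 3 or 4 (0.50 to 0.69), and that of Col17a1 with table totals (0.49), when the compared groups were fitted alone or without distal 21 day replicate 1 or 3 or proximal 21 day replicate 1 or 2 (0.47 to 0.61). All 3 calls thus ended with table totals. Of 10 integrin ligands measured of 12, Postn, periostin (-1.66 ± 0.23), and Fn1, fibronectin (-0.92 ± 0.21), were lower at 12 days and 0 higher. Of 22 integrin adhesion proteins measured of 23, many of which connect integrin tails to actin, 3 were higher and 3 lower at 12 days. The median was 0.06, and the largest was Tns1, a tensin (-0.46 ± 0.11). Among the higher ones, the calls of Pxn (0.29) and Src (0.32) ended with table totals (0.24 and 0.27). Pxn also lost its call without distal replicate 1 or proximal replicate 3 (0.23 and 0.24). Src lost it without distal replicate 1 or 4 or proximal replicate 2, 3 or 4 (0.24 to 0.33). At 14 days 4 were higher and 0 lower, Fermt2, a kindlin (0.45 ± 0.12), Kank2, which binds talin (0.45 ± 0.08), Lims1 (0.32 ± 0.07) and Parva (0.24 ± 0.07). Of these the call of Kank2 held in every alternative, while those of Fermt2, Lims1 and Parva ended when the compared groups were fitted alone. The Lims1 call also ended without proximal replicate 3. That of Fermt2 also ended with the replicate number as a block and without distal replicate 1, 2 or 3 or proximal replicate 1 or 2. The Parva call also ended with table totals, median-ratio factors, the replicate block, array weights or no variance trend, and on leaving out any library but distal replicate 1. At 21 days 5 were higher and 3 lower, and all 5 higher calls ended with table totals: Fermt3 (0.52 ± 0.15, then 0.38), Tln2 (0.45 ± 0.11, then 0.31), Src (0.43 ± 0.10, then 0.29), Cd151, which is also in the hemidesmosome list, and Kank2 (0.37 ± 0.08, then 0.23). The 3 lower calls, Tns1 (-0.38), Tns2 (-0.30) and Vcl (-0.32), each ended on leaving out some single libraries. Those of Tns1 and Tns2 also ended when the compared groups were fitted alone, and that of Tns2 with median-ratio factors (-0.25).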

How the data were processed

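The series holds 24 libraries of ribosome-depleted total RNA from mouse digit tips. STAR 2.5.4b, featureCounts 1.6.3 of Subread and cutadapt are named in the submitters' processing notes, as is build mm10. Although whole, the deposited values were handled as a score, not as counts. Among 9650 genes above 100 in all libraries, the least variable direction across libraries had an SD of 0.00674 (natural log), where Poisson sampling of counts would give 0.0455. The way the authors normalised them was not given in the sources used here. The other deposited column is the gene length in bases. Depth is unknown, no counting interval applies, and p-values may be too small.

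The test was limma 3.58.1 (R 4.3.3; linear model, moderated variances with an intensity trend) on log2(value + 1) of all 15055 genes and 24 libraries, with 6 group means (18 residual and 3.91 prior degrees of freedom). Benjamini-Hochberg adjustment ran over all genes, and 0.05 was the threshold. The fit was tested on simulated data. Fold changes on this scale understate changes of low genes. Summaries used Python 3.11.15, pandas 2.3.3 and numpy 2.4.6. Coordinates are from GENCODE M21 (GRCm38, which is mm10), where 35 of 35 names matched, and promoters from RefSeq.

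Of the members found by the rule, 1 is not reported here. The members and lists were chosen with earlier results of these data known, and roles were assigned after values were seen. Named with values in every library were members called between levels, or in the difference between levels in the change, with an absolute log2 difference of at least 0.5 there; other members with values in each library were chosen after their values were seen. From each list up to 4 called genes of largest difference are named, and beyond these some whose call ended in an alternative. Alternatives were pseudocounts of 0.5 and 8, a mean value of at least 50, table totals, median-ratio factors, only the compared groups, array weights, a block for the replicate number, no variance trend, and leaving out each library.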

Additional observations from a re-analysis of the deposited data

Results flagged for a closer look

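In 10 of 210 pairs of a gene and a group, 1 of the 4 libraries stood far from the other 3, by a gap whose share of the group's range passed the 95% critical value of Dixon's test; chance gives this in about 1 in 20 groups. Among laminins, Lamb2 was at 1452 in distal 21 day replicate 1 (others 1808 to 1851) and at 1817 in proximal 21 day replicate 4 (others 1694 to 1702). Itgav was at 3757 in distal 21 day replicate 1 (others 3510 to 3525) and at 3839 in proximal 21 day replicate 2 (others 3402 to 3460).

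Proximal 14 day replicate 3 was high for Itga11, at 1423 (others 846 to 898), and low for Itga6, at 7443 (others 12107 to 12584). Proximal 14 day replicate 4 was high for Itgam, at 271 (others 136 to 147), and for Itgb3, at 625 (others 493 to 503). Itgal was at 88 in distal 14 day replicate 1 (others 17 to 28), and Itgax at 530 in proximal 12 day replicate 4 (others 106 to 159).

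The change from 12 to 21 days differed between distal and proximal amputation, by the limma test of the difference itself, for Lama2 (1.46), Itga11 (1.17), Nid1 (1.17), Lamc3 (1.11), Itgb5 (0.91), Itga4 (0.87) and Lamb1 (0.79), all distal minus proximal on the log2 scale. The change from 12 to 14 days differed for Itga11 (1.01), Lama2 (0.89), Itga7 (0.83), Nid1 (0.76), Lama4 (0.59), Itgb5 (0.46), Itga3 (-0.65) and Itgb6 (-1.30).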

How the results depend on the processing

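Over 186 called gene differences, 1594 of 1669 alternatives other than leaving out a library kept the call and its direction and 75 lost the call; leaving out a library kept it in 1501 of 1736 and lost it in 235, spread over 53 gene differences, and 0 of all these reversed. The count at 14 days, 2, was 1 with table totals and 1 with the compared groups only. The proximal count from 12 to 14 days, 5, was 3 with table totals and 2 with the compared groups only. Leaving out each library in turn gave 12 to 16 called members between levels at 12 days, 0 to 3 at 14 days and 5 to 9 at 21 days. From 12 to 21 days it gave 13 to 16 after distal and 17 to 20 after proximal amputation and 6 to 9 for the difference in change; from 12 to 14 days 13 to 15, 2 to 6 and 5 to 9; and from 14 to 21 days 18 to 21 after distal and 13 to 16 after proximal amputation. The cause of these moves was not tested.

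The check found no consistent pairing by replicate number: correlations of same-numbered deviations ran from -0.194 to 0.702, and in no comparison did all 4 samples correlate best with their own number (0 to 2 of 4). With the replicate number as a block the counts between levels were 14 at 12 days, 2 at 14 days and 10 at 21 days (6 higher, 4 lower); from 12 to 21 days 16 after distal and 21 after proximal amputation and 7 for the difference; from 12 to 14 days 16, 5 and 7; and from 14 to 21 days 20 and 16. Depth is unknown, so what low values such as those of Itgal and Itgae can resolve is not known.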
